A study of Mus musculus with 4 samples.

Results

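The genes described here are receptors of 3 families, read out in dorsal root ganglia (DRG), where the cell bodies of the somatosensory neurons lie. They are the Mas-related G protein-coupled receptors (Mrgpr, 20 genes), the P2X ion channels (7 genes) and the P2Y receptors (8 genes). They were chosen by their symbols, pseudogenes named as such left out, and make up 35 of the 48431 genes in the deposited table. The ganglia came from male wild-type mice with the strain label SW that had received methylglyoxal (MGO), a reactive by-product of glycolysis, at 2 mg/kg intraperitoneally for 6 days. The study's title names metabolic neuropathy. All 4 libraries (replicates 1 to 4) belong to this 1 group, so no value below measures a response to MGO. Whether the libraries came from separate animals is not stated in the labels, and the p-values cover no more than the differences among the libraries, which may be technical.

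Values are CPM, reads divided by the total of a library and scaled to 1000000, from a 3′ kit that reads transcript ends, so that levels of different genes are compared without scaling by length. The low values imply 5576834 to 10138766 counted reads per library. A count of 0 allows a true level of up to 3 reads, which equals 0.296, 0.334, 0.538 and 0.415 CPM in replicates 1 to 4 and covers counting error only. Replicates 1 and 2 stood apart from replicates 3 and 4: 3 ribosomal RNA entries were at 0 in replicates 1 and 2 and took 8.27% and 10.8% of the reads in replicates 3 and 4. The origin of these library pairs is not known. Of the markers of the labelled tissue, all 12 pan-neuronal, all 9 satellite glia and all 9 Schwann cell genes were at 1 CPM or more in all 4 libraries. So were all 5 fibroblast, 6 endothelial, 7 smooth muscle and pericyte and 5 skeletal muscle markers. Of the protein-coding genes in the table, 54.4% were at that level in all 4 libraries.

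P2X receptors are ATP-gated cation channels built as trimers. P2Y receptors are G protein-coupled receptors for ATP, ADP, UTP, UDP and UDP-glucose, and both families sense nucleotides released by active, stressed or broken cells. Mrgpr genes form a large rodent family, many of them known from small sensory neurons and some from mast cells, where they respond to itch-inducing and painful compounds. In sensory ganglia P2rx3 and Mrgprd are known from non-peptidergic nociceptors, the small neurons that sense painful stimuli, and both were used as yardsticks.

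The last bases of a transcript decide where a 3′ library takes its reads. The stretches around the polyadenylation signal (AATAAA or ATTAAA, in capitals) are shown for the highest member of each family and for Mrgpre and P2rx7. Further members whose annotated end carries a signal, such as P2ry6 and Mrgpra3, are not shown. The stretches come from GENCODE M21 transcripts on GRCm38. The Mrgprd stretch is at chr7:145324045-145324074 on the plus strand, and Mrgprd responds to beta-alanine.
Mrgprd: gtaaatagtaacAATAAAaagaaagaaaga
The Mrgpre stretch is at chr7:143778366-143778395 on the minus strand, and Mrgpre is an orphan receptor.
Mrgpre: aagtgtaagccaAATAAAgcttttcctcct
The P2rx4 stretch is at chr5:122729708-122729737 on the plus strand.
P2rx4: tcaagtacgggaATTAAAagcgtgcagcac
The P2rx7 stretch is at chr5:122684252-122684281 on the plus strand.
P2rx7: aaactatttcatAATAAAacttgatttcaa
The P2ry1 stretch is at chr3:61008949-61008978 on the plus strand.
P2ry1: aaactgagattcAATAAAactatgaaacat

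Some Mrgpr genes are close copies of one another at these ends. In the last 200 bases of its transcript, Mrgpra6 matched Mrgpra4 at 192 of 200 bases, with 8 mismatches and no gap. The 30 aligned bases with the most differences, 3 in capitals, are shown from GENCODE M21 on the minus strand of GRCm38, Mrgpra6 at chr7:47185753-47185782 and Mrgpra4 at chr7:47980897-47980926.
Mrgpra6: AcaaagcagagcTgtgatgaagagcctctG
Mrgpra4: GcaaagcagagcCgtgatgaagagcctctA
Reads from such ends can match more than 1 gene, and the handling of such reads in counting is not stated, so the levels of the members named next are uncertain. Stretches of at least 100 bases also joined Mrgpra1 to Mrgpra9 (92.9% over 141 bases), Mrgpra14 to Mrgpra3 (91.2% over 170) and Mrgprb5 to Mrgprb4 (91.9% over 198). Mrgpra1 further matched Gm7255 at 92.0% over 138 bases. Gm7255 had 0.986, 1.448, 1.435 and 2.492 CPM in replicates 1 to 4, above Mrgpra1 in each library. Mrgpra3 itself matched Mrgpra2a at 88.5% over 148 bases, and Mrgpra2a had at most 0.111 CPM in any library. Among the P2 receptors, P2rx4 shared 90.8% over 120 bases with Sgms2, a sphingomyelin synthase gene at 11.9, 13.5, 25.3 and 16.1 CPM, each below P2rx4 in the same library.

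Of the 35 genes, 10 were at 1 CPM or more in all 4 libraries: P2rx4, P2rx3, P2rx5, P2rx6, P2rx7, P2ry1, P2ry6, P2ry14, Mrgprd and Mrgpre. For comparison, 26.5% of all genes in the table and 54.4% of the protein-coding genes were. A mean of at least 1 CPM with lower values in some libraries was found for Mrgpra3, P2ry2 and P2ry12. Below a mean of 1 CPM, 4 genes passed it in some library (Mrgpra1, Mrgprb5, Mrgpra14 and P2ry10) and 8 in none (Mrgprf, P2ry13, P2rx2, P2rx1, Mrgprx1, Mrgprx2, Mrgpra4 and Mrgpra6). The remaining 10 were at 0 in every library, as were 51.5% of all genes and 23.7% of the protein-coding genes, and 9 of the 10 were Mrgpr genes. The P2X genes summed to 135 ± 19.5 CPM (SD, n = 4), the P2Y genes to 44.9 ± 27.4 CPM and the Mrgpr genes to 19.1 ± 8.48 CPM. By library pair, the P2Y sum averaged 68.4 CPM in replicates 1 and 2 and 21.4 CPM in replicates 3 and 4. The Mrgpr sum averaged 25.9 CPM in replicates 1 and 2 and 12.2 CPM in replicates 3 and 4, and the P2X sum 126 and 144 CPM.

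**Figure D1:**
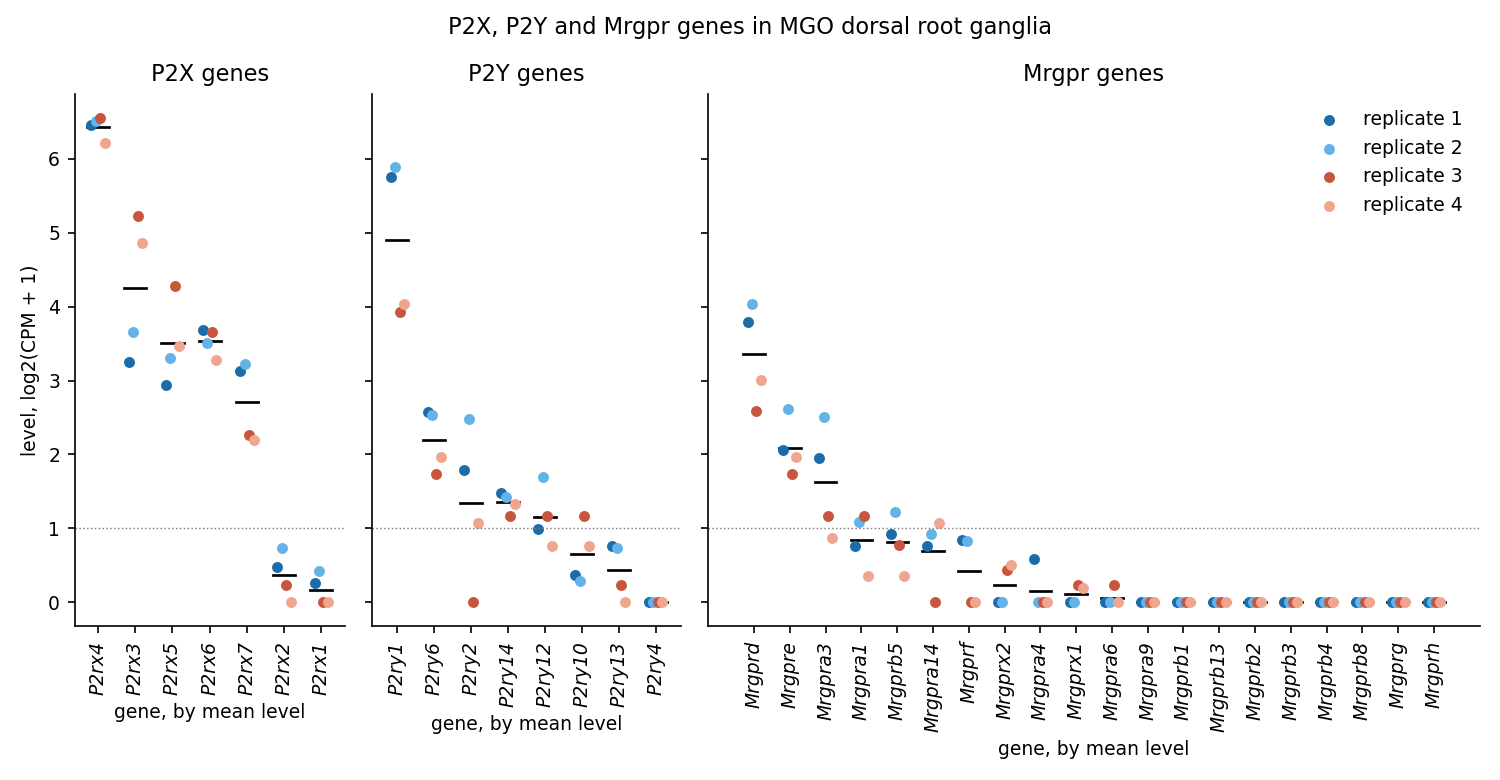
Level of every P2X, P2Y and Mrgpr gene as log2(CPM + 1) in each of the 4 libraries (points; replicates 1 and 2 blue, 3 and 4 red) with the mean of the log values (bar); the dotted line is 1 CPM. P2rx4 stood highest, between 73.4 and 93.2 CPM, and 10 genes lay on 0.

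Among the P2X channels, P2rx4 (ENSMUSG00000029470.15, chr5:122707544-122729738) led in every library. P2rx4, known from microglia, macrophages and lysosomes, had 87.1, 90.0, 93.2 and 73.4 CPM in replicates 1 to 4, a mean of 85.9 ± 8.74 CPM. It held 64.1% ± 7.06 of the reads of its family. Its library values lay close together, with a coefficient of variation of 10.2% where the median gene with a mean of at least 1 CPM had 35.1%. The library pairs overlapped.

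P2rx3 (ENSMUSG00000027071.14, chr2:84998583-85037462), the subunit of the homomeric and P2X2/3 channels of nociceptors, had 8.48, 11.6, 36.6 and 28.0 CPM. Replicates 3 and 4 were the high ones, and the pairs did not overlap. The counting intervals (exact Poisson, 95%) did not overlap either, the upper bounds of replicates 1 and 2 lying below the lower bounds of replicates 3 and 4, which were 31.7 and 24.2 CPM. P2rx2, the other subunit of the heteromeric channel, had 0.395, 0.668, 0.179 and 0 CPM, from 4, 6, 1 and 0 reads. In all, P2rx3 had 596 reads and P2rx2 had 11. The P2rx3 gene overlaps Ssrp1, a histone chaperone gene on the opposite strand, by 229 bases away from its 3′ end; Ssrp1 had 148 to 161 CPM, and whether counting used the strand is not known.

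The other P2X genes were lower. P2rx5 had 6.71, 8.91, 18.5 and 10.1 CPM. P2rx6, whose subunit forms few working channels alone, had 11.8, 10.4, 11.7 and 8.72 CPM and differed from P2rx5 by less than the spread, being higher in 2 of 4 libraries. The 3′ end of P2rx6 lies inside Slc7a4, an amino acid transporter gene on the opposite strand with 12.9 to 27.1 CPM, though not in one of its exons. P2rx7, the channel of macrophages and other immune cells that opens a wide pore under high ATP, had 7.79, 8.36, 3.79 and 3.60 CPM. In replicate 3 its reads came to 21.13 and those of Mir8115, a microRNA entry inside the gene, to 5.87, which sum to 27.0 whole reads. P2rx1, the channel of platelets and smooth muscle, had 0.197, 0.334, 0 and 0 CPM. P2rx4 and P2rx7 are neighbours on chromosome 5, with 16112 bases between them, and P2rx4 had 11.2, 10.8, 24.6 and 20.4 times the CPM of P2rx7 in replicates 1 to 4.

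Of the P2Y receptors, P2ry1 (ENSMUSG00000027765.6, chr3:61002795-61008982), the Gq-coupled ADP receptor, was the highest. It had 53.1, 58.5, 14.2 and 15.4 CPM, and replicates 1 and 2 were the high ones without overlap. P2ry1 held 75.4% ± 7.25 of the P2Y reads, and its place relative to P2rx3 turned between the pairs. The ratio of P2ry1 to P2rx3 was 6.26 and 5.05 in replicates 1 and 2, and 0.387 and 0.550 in replicates 3 and 4.

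P2ry6, the UDP receptor, had 4.93, 4.79, 2.33 and 2.91 CPM. P2ry2, the Gq-coupled receptor for ATP and UTP, had 2.47, 4.57, 0 and 1.11 CPM, from 25, 41, 0 and 8 reads. P2ry14, the receptor for UDP-glucose, had 1.78, 1.67, 1.26 and 1.52 CPM. These were the levels just above 1 CPM, and the order of P2ry2, P2ry14 and P2ry12 differed from library to library, P2ry2 being above P2ry14 in 2 of 4 and P2ry14 above P2ry12 in 2 of 4, with a tie in replicate 3. P2ry12, the Gi-coupled ADP receptor of microglia and platelets, had 0.986, 2.23, 1.26 and 0.692 CPM.

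P2ry13, the Gi-coupled receptor next to it on chromosome 3, had 0.690, 0.668, 0.179 and 0 CPM. P2ry10, a receptor for lysophosphatidylserine, had 0.296, 0.223, 1.26 and 0.692 CPM, 17 reads in all. P2ry4, a UTP receptor, was at 0 in every library. P2ry12, P2ry13 and P2ry14 lie inside Med12l, a gene on the opposite strand that had 7.69, 6.46, 21.0 and 21.6 CPM, more than any of the 3 receptors. Their 3′ ends are not in its exons.

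Among the Mrgpr genes, Mrgprd (ENSMUSG00000051207.7, chr7:145314835-145324086) led in every library with 12.9, 15.5, 5.02 and 7.06 CPM, a mean of 10.1 ± 4.90 CPM and 52.2% ± 5.54 of the reads of the family. Replicates 1 and 2 were the high ones without overlap. Mrgpre followed at 3.16, 5.12, 2.33 and 2.91 CPM. Mrgpra3, the chloroquine receptor of itch neurons, had 2.86, 4.68, 1.26 and 0.831 CPM, from 29, 42, 7 and 6 reads. Mrgpre was above Mrgpra3 in all 4 libraries, but by no more than the SD of the difference.

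The remaining Mrgpr genes gave few reads. Mrgpra1 had 0.277 to 1.26 CPM (26 reads in all), Mrgprb5 0.277 to 1.34 CPM (27 reads) and Mrgpra14 0 to 1.11 CPM (23 reads). These were the members just below a mean of 1 CPM. Mrgpra14, like Mrgprb13, is annotated as an unprocessed pseudogene. Mrgprf, an orphan receptor, had 0.789 and 0.780 CPM in replicates 1 and 2 and was at 0 in replicates 3 and 4. It lies beside Mrgprd on chromosome 7, and Mrgprd had 16.4 and 19.9 times its CPM in replicates 1 and 2. Mrgprx2 was at 0 in replicates 1 and 2 and at 0.359 and 0.415 CPM in replicates 3 and 4.

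Mrgprx1, a receptor known for itch-evoking peptides, had 2 reads in all. Mrgpra4 had 5 reads, all in replicate 1, and Mrgpra6 had 1 read. Mrgprb2, the receptor of mouse mast cells for basic secretagogues, was at 0 in every library, as were Mrgpra9, Mrgprb1, Mrgprb3, Mrgprb4, Mrgprb8, Mrgprb13, Mrgprg and Mrgprh. Of 8 mast cell markers, 4 were at 1 CPM or more in all 4 libraries, beside 54.4% of the protein-coding genes. The list summed to 14.3 and 20.3 CPM in replicates 1 and 2 and to 13.5 and 11.6 CPM in replicates 3 and 4. Fcer1a, the alpha chain of the IgE receptor, was at 0. In the test against 1 CPM given below, Cpa3, Mcpt4 and Hdc were higher and Tpsab1 and Ms4a2 lower. With the library pairs as a random block Cpa3 (limma, adjusted p = 0.144) and Mcpt4 (0.0757) did not pass. The part of mast cells in the values of Mrgprb2 was not tested. Of the Mrgpr genes, 19 lie on chromosome 7 and 15 of them in 1 cluster at chr7:47185707-48643811. In this cluster 1 gene, Mrgpra3, had a mean of at least 1 CPM and 7 were at 0 in all libraries.

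Each gene was then tested against 1 CPM with limma on log2(CPM + 1) over the 23508 genes above 0 in at least 1 library, 25 of them receptors. Of the receptors, 9 were higher than 1 CPM (adjusted p under 0.05), where 53.5% of all genes tested were higher. They were P2rx4, P2ry1, P2rx3, P2rx5, P2rx6, Mrgprd, P2rx7, P2ry6 and Mrgpre, with log2 differences between 5.44 ± 0.14 (SE) for P2rx4 and 1.09 ± 0.25 for Mrgpre. Lower than 1 CPM were 8 receptors, against 30.4% of all genes, and these were the 8 that stayed under 1 CPM throughout. On the means of the library pairs Mrgpre did not pass (limma, adjusted p = 0.0698), in a fit that took its variances from the trend over all genes. P2ry14, Mrgpra3, P2ry2 and P2ry12 had log2 differences of 0.35, 0.63, 0.34 and 0.15 and passed in neither direction, though P2ry14 passed without a mean-variance trend (limma, adjusted p = 0.026). Mrgpra3 passed without replicate 4 (limma, adjusted p = 0.0464) and P2ry10 without replicate 3 (0.0149, lower), whereas Mrgprf did not pass without replicate 3 (0.087) or 4 (0.0836), nor P2ry13 without replicate 4 (0.0521), and neither passed with all genes of the table in the fit (0.0955 and 0.0893).

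Against P2rx3 in the same library, P2rx4 was higher, in 4 of 4 libraries and by a log2 difference of 2.19 ± 0.55 (SE; limma, adjusted p = 0.00398), and 22.6% of all 14816 genes tested were higher. P2rx4 had 10.3 and 7.77 times the CPM of P2rx3 in replicates 1 and 2 and 2.55 and 2.62 times in replicates 3 and 4. Called lower than P2rx3 were 7 receptors, where 33.5% of all genes were called lower: P2rx7, P2ry6, Mrgpre, Mrgpra3, P2ry14, P2ry2 and P2ry12. Their log2 differences ran between -1.54 ± 0.62 for P2rx7 and -3.09 ± 0.55 for P2ry12. Each of the 7 was lower in all 4 libraries. P2ry1, P2rx6, P2rx5 and Mrgprd did not pass, P2ry1 and Mrgprd being above P2rx3 in 2 of 4 libraries and P2rx5 below it in 4 of 4. All 8 calls were lost when the library pairs were a random block, with a within-pair correlation of 0.931 (limma, adjusted p = 0.0992 for P2rx4 and 0.0678 to 0.319 for the 7 others). P2rx7 also lost its call without replicate 2, 3 or 4 (limma, adjusted p = 0.053, 0.188 and 0.249) and P2ry6 without replicate 4 (0.0619). The block and these fits took their variances from the trend over all genes, not from the spread of each gene.

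Against Mrgprd, P2rx4 and P2ry1 were higher in 4 of 4 libraries, with log2 differences of 3.08 ± 0.34 (SE) and 1.54 ± 0.30 (limma, adjusted p = 7.94e-05 and 0.00191), and 43.3% of all genes tested were higher. Called lower were 6 receptors, each lower in all 4 libraries, against 27% of all genes: P2ry6, Mrgpre, Mrgpra3, P2ry14, P2ry2 and P2ry12. P2rx3, P2rx5, P2rx6 and P2rx7 did not pass, P2rx7 being lower in 4 of 4 libraries. With the library pairs as a random block P2rx4 and P2ry1 still passed (limma, adjusted p = 8.13e-07 and 0.0211). So did Mrgpra3, P2ry14, P2ry2 and P2ry12, while P2ry6 (0.126) and Mrgpre (0.0954) did not. That fit took its variances from the trend over all genes, not from the spread of each gene, and held only 2 pairs. The means of the library pairs left 1 receptor higher and 3 lower. Without replicate 1 or 2 P2rx3 was called higher than Mrgprd (limma, adjusted p = 0.0146 and 0.00575). Those 2 fits also took their variances from the trend over all genes, not from the spread of each gene. Each kept only 1 library of the pair in which P2rx3 was below Mrgprd. Without replicate 3 P2rx7 was called lower than Mrgprd (limma, adjusted p = 0.0499). Without replicate 1 P2ry6 (limma, adjusted p = 0.0522) and Mrgpre (0.0578) lost their calls.

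**Figure D2:**
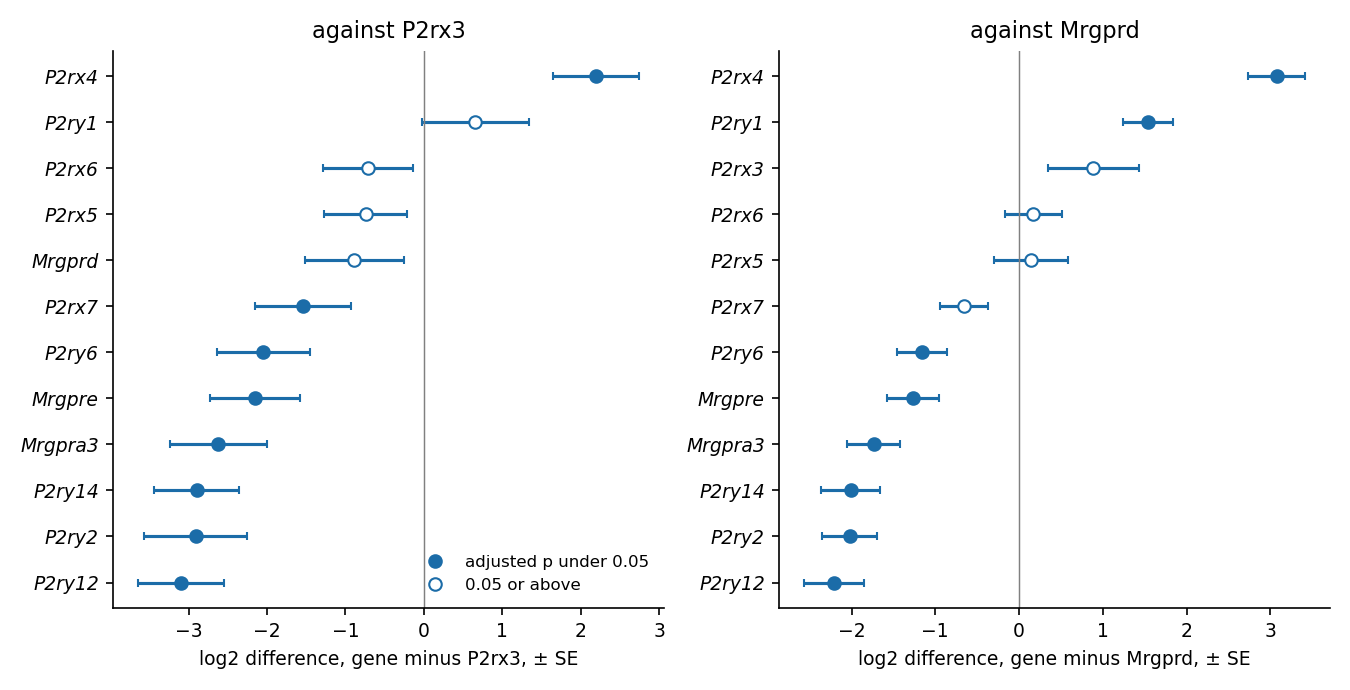
Log2 difference (± SE, n = 4 libraries) of each receptor with a mean of at least 1 CPM against P2rx3 (left) and against Mrgprd (right); filled points have an adjusted p under 0.05. P2rx4 stands highest on both sides, at 2.19 and 3.08, and P2ry12 lowest, at -3.09 and -2.21; the calls on the left are lost with the library pairs as a block.

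The order of both yardsticks turned between the pairs of libraries. P2rx3 had 0.656 and 0.748 times the CPM of Mrgprd in replicates 1 and 2, and 7.29 and 3.96 times in replicates 3 and 4. On the log2(CPM + 1) scale, 4 of the 13 receptors with a mean of at least 1 CPM were at least 2-fold higher in replicates 1 and 2 without overlap (P2ry1, P2ry2, Mrgpra3 and Mrgprd), where 20.5% of all genes were. P2rx3 alone was at least 2-fold higher in replicates 3 and 4 without overlap, where 9.63% of all genes were. Without regard to size, 10 of the 13 did not overlap between the pairs, against 78.5% of all genes.

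The log2 differences, replicates 1 and 2 minus replicates 3 and 4, were 1.85 for P2ry1, 1.60 for P2ry2, 1.20 for Mrgpra3, 1.12 for Mrgprd and -1.59 for P2rx3. The median over all genes was 0.16, and 0.04 after the ribosomal RNA entries were left out. On that scaling the difference of Mrgprd was 1.00, just under 2-fold, and those of P2rx4 and P2rx6, 0.10 and 0.12 as deposited, were -0.046 and -0.009. P2rx7, P2ry6 and Mrgpre, at 0.95, 0.70 and 0.48, were also higher in replicates 1 and 2 without overlap (P2rx7 by 2.19-fold in plain CPM), and P2rx5, at -0.75, in replicates 3 and 4. The difference of P2ry2 rests on 0 and 8 reads in replicates 3 and 4, and with a pseudocount of 0.1 it was 3.32.

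**Figure D3:**
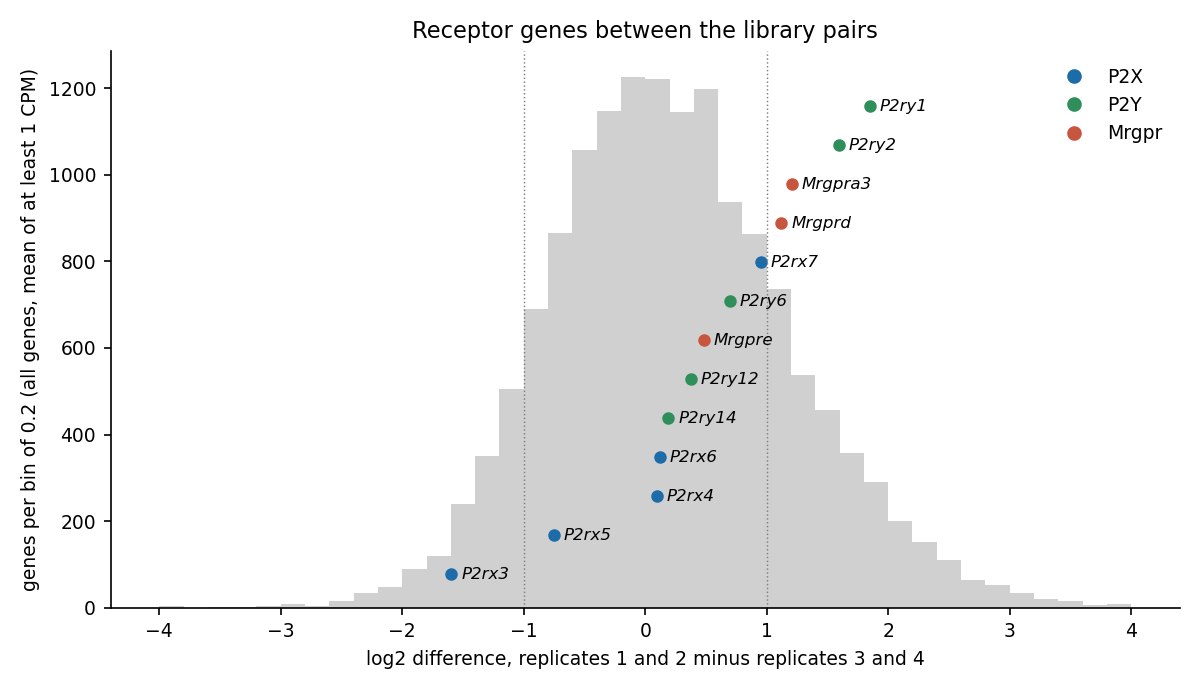
Log2 difference of the library pairs (replicates 1 and 2 minus replicates 3 and 4) for the 13 receptors with a mean of at least 1 CPM (points, at arbitrary heights) over all 14817 genes at that level (grey histogram, clipped at 4 on each side); dotted lines mark 2-fold. P2ry1 lies farthest right at 1.85 and P2rx3 farthest left at -1.59.

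Markers of many cell types moved between the pairs as well, and in bulk tissue fewer cells of a type and less RNA per cell cannot be told apart. Since the origin of the pairs is not known, neither can be told apart from a technical difference between the libraries. Markers of non-peptidergic nociceptors other than the receptors, 9 genes, summed to 1115 and 1141 CPM in replicates 1 and 2 and to 633 and 664 CPM in replicates 3 and 4. They were led by Ret (357 and 380 CPM in replicates 1 and 2, 211 and 205 CPM in replicates 3 and 4), Scn11a and Gfra2. Of the 9, 8 were at 1 CPM or more in all 4 libraries, beside 54.4% of the protein-coding genes. Within the list Scn11a, a nociceptor sodium channel gene, had 306 and 308 CPM in replicates 1 and 2 and 82.1 and 107 CPM in replicates 3 and 4. Prkcq, a protein kinase C gene, had 26.1 and 24.3 CPM in replicates 1 and 2 and 67.6 and 60.4 CPM in replicates 3 and 4, so members of 1 marker list ran both ways, as P2rx3 and Mrgprd did. The 7 markers of peptidergic nociceptors summed to 1419 and 1288 CPM in replicates 1 and 2 and to 522 and 457 CPM in replicates 3 and 4. The 11 of pruriceptors summed to 447 and 425 CPM and to 317 and 276 CPM. Most of that sum was Jak1, with 301 and 302 CPM in replicates 1 and 2 and 229 and 189 CPM in replicates 3 and 4. Other pruriceptor markers ran both ways. Osmr had 34.6 and 28.2 CPM in replicates 1 and 2 and 6.10 and 7.34 CPM in replicates 3 and 4. Htr1f had 1.68 and 0.780 CPM and then 2.87 and 2.35 CPM.

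The pan-neuronal markers summed to 13634 and 13791 CPM in replicates 1 and 2 and to 13351 and 11670 CPM in replicates 3 and 4. Their sum moved less, but single members ran both ways. Nefl had 2637 and 2412 CPM in replicates 1 and 2 and 1157 and 1185 CPM in replicates 3 and 4. Prph had 883 and 993 CPM in replicates 1 and 2 and 1894 and 1565 CPM in replicates 3 and 4. Satellite glia markers summed to 1310 and 1271 CPM in replicates 1 and 2 and to 742 and 671 CPM in replicates 3 and 4. Schwann cell markers summed to 29769 and 28644 CPM in replicates 1 and 2 and to 16833 and 16626 CPM in replicates 3 and 4. Skeletal muscle markers, Acta1 and Myh4 leading, summed to 864 and 846 CPM in replicates 1 and 2 and to 490 and 421 CPM in replicates 3 and 4.

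Among immune and blood cells, the 12 macrophage markers summed to 377 and 418 CPM in replicates 1 and 2 and to 279 and 283 CPM in replicates 3 and 4. Of these 12, 7 were at 1 CPM or more in all libraries, beside 54.4% of the protein-coding genes. The macrophage markers did not move as one. C1qa had 167 and 209 CPM in replicates 1 and 2 and 118 and 122 CPM in replicates 3 and 4, while Mrc1 had 51.5 and 45.3 CPM in replicates 1 and 2 and 88.9 and 91.5 CPM in replicates 3 and 4. Csf1r, C1qb and Trem2 averaged 2.21, 1.03 and 1.27 CPM, Cd68 0.185 CPM and Tmem119 0.240 CPM. The 5 platelet markers, a cell type known for P2ry1 and P2ry12, summed to 136 and 138 CPM in replicates 1 and 2 and to 464 and 361 CPM in replicates 3 and 4, nearly all from Gp1bb. The other detected platelet markers ran the other way, Pf4 with 14.1 and 13.5 CPM in replicates 1 and 2 and 2.51 and 4.29 CPM in replicates 3 and 4, and Itga2b with 10.5 and 10.5 CPM and with 5.74 and 6.92 CPM. Ppbp and Gp9 stayed under 1 CPM. Neutrophil markers, 6 genes, summed to 267 and 273 CPM in replicates 1 and 2 and to 36.4 and 28.8 CPM in replicates 3 and 4. The part of these cells in the levels of the receptors was not tested.

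A 3′ library depends on annotated transcript ends, and these differed among the receptors. The longest annotated 3′ UTR of the 13 receptors with a mean of at least 1 CPM had a median of 1166 bases, that of the 11 protein-coding receptors above 0 with a lower mean 381 bases, and that of the 9 at 0 in all libraries 143 bases. The median of all protein-coding genes was 902 bases. This order did not hold within each family. In the same 3 groups the Mrgpr medians were 1727 (3 genes), 73 (7) and 140 bases (8). The P2Y medians ran the other way, at 1166 (5 genes), 1488.5 (2) and 3051 bases (1). The P2X medians of the first 2 groups were 1046 (5 genes) and 727.5 bases (2). Of the Mrgpr genes, the 3 with a mean of at least 1 CPM all ended with a polyadenylation signal in the last 50 bases. Such a signal was found in 1 of 7 with a lower mean and 3 of 8 at 0. Of the P2X genes, 2 of 5 with a mean of at least 1 CPM and 2 of 2 with a lower mean had one. Of the P2Y genes, 4 of 5, 2 of 2 and 0 of 1 at 0 did. Mrgpra1 and Mrgprb5, the highest members under a mean of 1 CPM, are annotated with only 59 and 34 bases of 3′ UTR and no signal. Counter-examples were Mrgprx2, with 3391 bases, a signal and 5 reads in all, and P2rx3, at 21.2 ± 13.4 CPM without either signal in the last 50 bases of its transcript with the longest 3′ UTR. The part of the annotated ends in the low values was not tested.

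**Figure D4:**
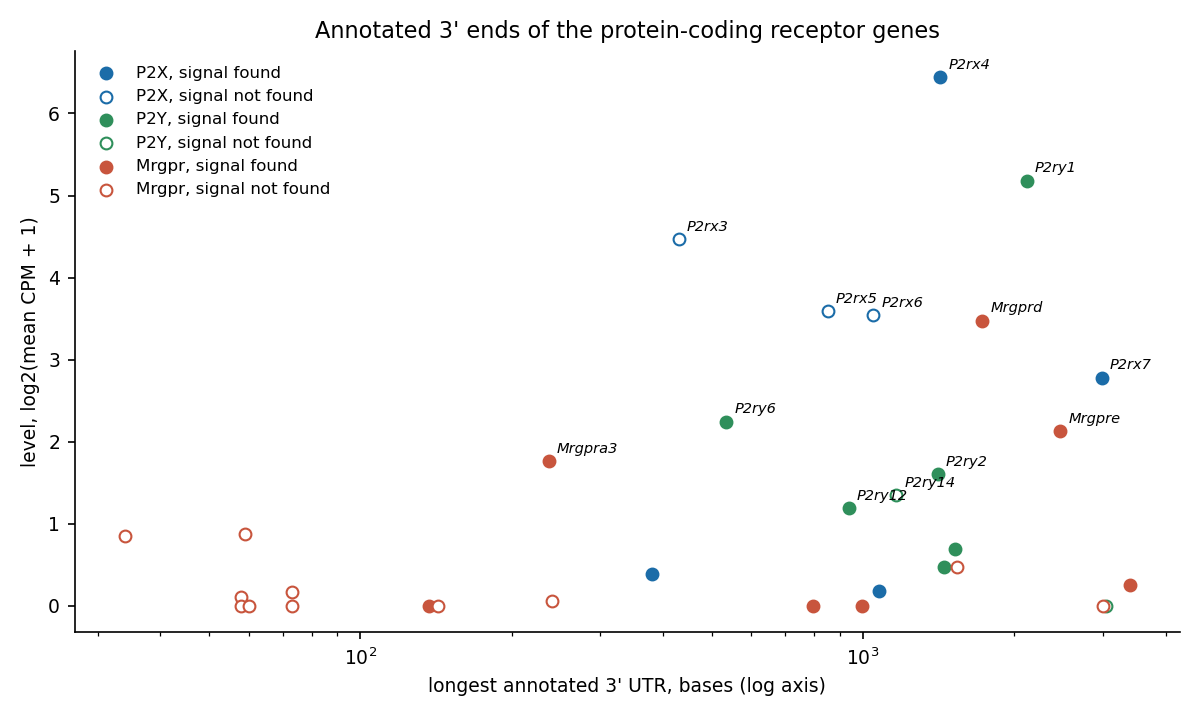
Longest annotated 3′ UTR (bases, log axis) against the level, log2(mean CPM + 1), of the 33 protein-coding receptors; filled points have AATAAA or ATTAAA in the last 50 bases of that transcript. Several Mrgpr genes with a mean under 1 CPM have short ends, such as Mrgprb5 at 34 bases, and others long ones, such as Mrgprx2 at 3391, while the genes named on the plot have 237 bases or more.

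The promoter windows of RefSeq (GRCm38.p6, 250 bases before and 50 after the start, 300 in all) matched 26 of the 35 receptors. The yardstick P2rx3 had no window and was not searched, nor were P2rx2, P2rx5, P2ry6, Mrgpra3, Mrgpra6, Mrgpra14, Mrgprb3 and Mrgprf. The windows of the highest P2X, P2Y and Mrgpr gene among the 26 are shown because they differ in base composition. The GC box GGGCGG or its reverse complement CCGCCC is in capitals. The P2rx4 window is at chr5:122707294-122707593 on the plus strand.
P2rx4: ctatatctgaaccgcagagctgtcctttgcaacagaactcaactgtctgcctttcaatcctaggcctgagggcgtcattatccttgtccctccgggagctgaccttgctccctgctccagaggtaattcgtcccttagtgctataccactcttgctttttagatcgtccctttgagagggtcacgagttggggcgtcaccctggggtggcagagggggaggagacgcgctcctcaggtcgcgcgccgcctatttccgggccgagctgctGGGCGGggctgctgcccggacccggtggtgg
The P2ry1 window is at chr3:61002535-61002834 on the plus strand.
P2ry1: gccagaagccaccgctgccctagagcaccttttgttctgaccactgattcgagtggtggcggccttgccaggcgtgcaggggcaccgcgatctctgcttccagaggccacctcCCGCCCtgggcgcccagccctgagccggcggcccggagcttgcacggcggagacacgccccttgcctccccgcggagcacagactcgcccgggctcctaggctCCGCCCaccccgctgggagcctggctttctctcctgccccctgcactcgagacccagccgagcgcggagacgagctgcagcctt
The Mrgprd window is at chr7:145314585-145314884 on the plus strand.
Mrgprd: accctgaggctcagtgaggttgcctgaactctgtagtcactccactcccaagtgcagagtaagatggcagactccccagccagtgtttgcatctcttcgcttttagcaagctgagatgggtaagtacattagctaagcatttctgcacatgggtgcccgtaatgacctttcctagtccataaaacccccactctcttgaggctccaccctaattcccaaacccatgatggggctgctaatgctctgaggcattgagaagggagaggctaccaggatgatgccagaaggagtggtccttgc

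The P2rx4 window had 60.3% GC and 18 CpG, that of P2ry1 70.7% and 25, and that of Mrgprd 51.7% and 2, where the median window had 52.7% and 7. The 26 receptors had 32 windows, some having more than 1. The GC box was found on either strand in 35.7% of the 32851 windows and in those of 6 of the 26 receptors: P2rx4, P2rx6, P2rx7, P2ry1, P2ry2 and Mrgprg. RUNX factors are known regulators of non-peptidergic neurons, and their core TGTGGT (or ACCACA) was in 16.8% of all windows. It was in those of 6 of the 26 receptors: Mrgpra1, Mrgprb2, Mrgprh, Mrgprx2, P2ry10 and P2ry13. TATAAA (or TTTATA) was in 13.6% of all windows and in those of 3 of the 26 receptors: Mrgprb4, P2rx6 and P2ry14. The CRE TGACGTCA was in 1.79% of all windows and in none of the receptors' windows. These matches describe letters in the windows and no binding.

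The genes that supply and remove the ligands of these receptors were read from the same libraries. Of 8 genes of nucleotide release, 5 were called higher than 1 CPM and none lower, beside 53.5% and 30.4% of all genes tested, and Panx3 and Calhm1 were at 0 and not tested. With the library pairs as a random block Gjb2 (limma, adjusted p = 0.203) and Calhm2 (0.0788) lost their calls. Panx1, the pannexin channel that lets ATP out, led with 78.4, 81.7, 124 and 123 CPM, above P2rx3 in the same library by a log2 difference of 2.40 ± 0.52 (SE; limma, adjusted p = 0.00152). With the library pairs as a random block that difference did not pass (limma, adjusted p = 0.0759). Lrrc8a, a volume-regulated anion channel gene, had 26.5, 27.4, 4.48 and 5.12 CPM and was high in replicates 1 and 2. Slc17a9, the vesicular nucleotide transporter, had 0.592, 0.446, 1.79 and 2.35 CPM.

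Of 13 genes of nucleotide breakdown in the table, 9 were called higher than 1 CPM and none lower, beside the same 53.5% and 30.4% of all genes, and Entpd8 was at 0. Acpp, the prostatic acid phosphatase that makes adenosine from AMP in nociceptors, led with 126, 95.9, 161 and 161 CPM. Entpd5, an endoplasmic reticulum UDPase, followed with 56.3, 61.2, 130 and 163 CPM. Enpp2, the ectoenzyme autotaxin, had 66.2, 58.5, 26.9 and 26.3 CPM. Nt5e, the ecto-5′-nucleotidase that also makes adenosine, had 27.8 and 20.5 CPM in replicates 1 and 2 and 12.7 and 7.61 CPM in replicates 3 and 4. Entpd2, a nucleotidase known from glia, had 66.0 and 59.2 CPM in replicates 1 and 2 and 4.66 and 8.58 CPM in replicates 3 and 4.

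All 4 adenosine receptor genes were at 1 CPM or more in every library, beside 54.4% of the protein-coding genes. In the test 3 of the 4 were higher than 1 CPM, beside 53.5% of all genes tested. Of these, Adora2b did not pass with the library pairs as a random block (limma, adjusted p = 0.0882). Adora1, the Gi-coupled A1 receptor, led with 36.8, 44.7, 42.0 and 46.4 CPM and varied little between libraries. Adora2a had 4.93 and 7.91 CPM in replicates 1 and 2 and 12.2 and 12.5 CPM in replicates 3 and 4, and Adora2b 2.32 ± 0.18 CPM. Of 5 genes of adenosine uptake and salvage, 3 were higher than 1 CPM and Slc28a2 was lower, beside 53.5% and 30.4% of all genes tested. Slc29a1 lost its call under that block (limma, adjusted p = 0.0517). Adk, adenosine kinase, had 650 and 719 CPM in replicates 1 and 2 and 89.1 and 89.6 CPM in replicates 3 and 4.

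**Figure D5:**
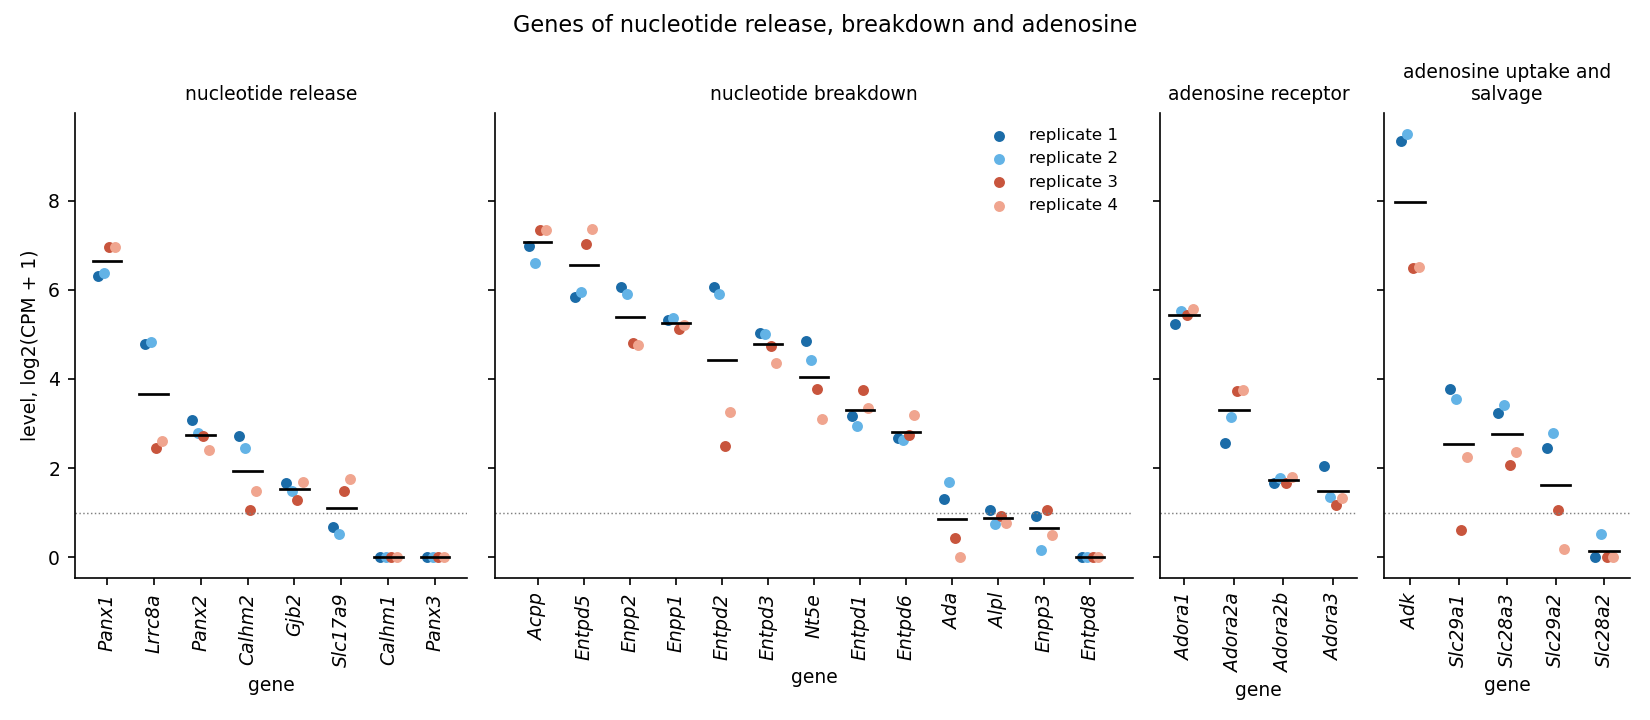
Levels, log2(CPM + 1), of genes of nucleotide release, nucleotide breakdown, adenosine receptors and adenosine uptake in each of the 4 libraries (points; replicates 1 and 2 blue, 3 and 4 red) with the mean of the log values (bar); the dotted line is 1 CPM. Adora1 stays between 36.8 and 46.4 CPM, while Adk and Entpd2 split between the library pairs.

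All 12 genes of the G proteins and phospholipases through which P2Y and Mrgpr receptors act were higher than 1 CPM, beside 53.5% of all genes tested. Gnao1, the Go alpha subunit, led with 976 ± 72.3 CPM, followed by the Gq gene Gnaq with 198 and 164 CPM in replicates 1 and 2 and 115 and 106 CPM in replicates 3 and 4. Plcb3, the phospholipase C beta of many nociceptors, had 57.2 and 54.4 CPM in replicates 1 and 2 and 182 and 147 CPM in replicates 3 and 4. Among receptors related to P2Y by sequence, Lpar6 (10.8 ± 1.26 CPM) and Lpar4 (6.40 ± 1.10 CPM), both receptors for lysophosphatidic acid, were higher than 1 CPM, and Gpr34 had 1.44 ± 0.43 CPM without passing the test. Gpr17 and Gpr171 were lower, and Oxgr1 was at 0. Mas1, the founding relative of the Mrgpr genes, had 0.296 CPM in replicate 1 and was at 0 in the other libraries.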

How the data were processed

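RNA of dorsal root ganglia was made into 4 libraries with a Lexogen QuantSeq 3′ kit after TRIzol isolation and ribosomal RNA depletion, per the labels' protocols. Cufflinks 2.2.1, TopHat2 2.1.1, Bowtie2 2.2.9 and FastQC 0.11.5, with GRCm38.p4 and mm10, are named in the submitters' processing notes. The values deposited by the authors are headed TPM but behaved as CPM: each library summed to 1000000, and at least 98.277% of the values above 0 were whole multiples of 1 step to within 0.05 steps. They were used as CPM, without a count model since the rest were fractions of a step. Intervals are exact Poisson and cover counting error only.

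Receptor genes and gene lists were chosen with earlier results of these data known. All 13 receptors with a mean of at least 1 CPM are given per library, the others by range or value, and of the pathway lists mainly the highest genes and those at 0; Entpd2, Lrrc8a, Nt5e, Plcb3, Prkcq, Slc17a9 and other list genes beyond these were named after their values were seen. Some list genes are not reported here. Levels were tested with limma 3.58.1 in R 4.3.3 on log2(CPM + 1), intercept only, with a mean-variance trend, two-sided, against 1 CPM (genes above 0 in at least 1 library) or as within-library differences from P2rx3 or Mrgprd (genes averaging 1 CPM or more). Benjamini-Hochberg adjustment ran over all genes tested, with a threshold of 0.05. The noise of P2rx3 or Mrgprd enters every difference from it. The steps were tested on simulated data. A fold on the log2(CPM + 1) scale understates differences of low genes. Library pairs are described without a test, since the pairing was seen in the data.

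Gene positions and transcript ends come from GENCODE M21 (GRCm38), in which 48052 (99.2%) of the gene identifiers had an entry. Protein identity between receptors had been planned but was not analysed here; the last 200 bases of the transcript with the longest 3′ UTR were compared with BLAST 2.17.0 instead. Tables and plots were made with pandas 2.3.3, numpy 2.4.6 and matplotlib 3.10.9 under Python 3.11.15. The alternatives were another pseudocount, 2 rescalings, library pairs as a random block or as means, no variance trend, other filters and levels, and each replicate left out. Values of single library pairs, P2rx7 with the reads of Mir8115 added, and list genes under the block, were computed as alternatives chosen after seeing the data.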

Additional observations from a re-analysis of the deposited data

How the results depend on the processing

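No paired analysis was possible because all libraries belong to 1 group. The number of receptors at 1 CPM or more in every library, 10, ran between 9 and 12 over all alternatives, and 12 in replicates 1 and 2 alone and 10 in replicates 3 and 4 alone. Against 1 CPM, 16 receptors were lower without a filter, 0 with a mean of at least 0.5 CPM and 5 against a level of 0.5 CPM, and over all genes 31028 and 4 (20 unadjusted) were lower under those filters. Against P2rx3, the library pairs as a random block left 0 receptors higher and 0 lower, and 1246 genes higher and 0 lower of all (2361 and 2826 at an unadjusted p under 0.05, limma); the means of the library pairs, a fit on 2 values, left 0 and 0 receptors and 130 and 0 genes (1179 and 2155 unadjusted). Leaving out 1 replicate gave 2131 to 3719 genes higher than P2rx3, the lowest without replicate 2. Genes above 0 in at least 1 library gave 19 receptors and 14135 genes lower than P2rx3, and 18 and 12931 lower than Mrgprd; a mean of at least 10 CPM gave 0 and 0 for both, by the filter itself, and no gene was lower at an unadjusted p under 0.05. Against Mrgprd, the pair block left 2577 genes lower of all, and the pair means left 1 receptor higher, 3 lower and 1949 genes lower. In the tests, directions turned only for differences that had not passed. With a pseudocount of 0.1 this was P2ry2 (-0.004) against 1 CPM. Against 2 CPM they were P2ry14 (-0.235), P2ry2 (-0.249) and P2ry12 (-0.432). Against 0.5 CPM they were Mrgpra1 (0.256), Mrgprb5 (0.234), Mrgpra14 (0.103) and P2ry10 (0.064). With 1 replicate left out they were P2ry2 (-0.044 to 0.782), P2ry12 (-0.026 to 0.285) and Mrgpra1 (-0.27 to 0.004) against 1 CPM. Against Mrgprd, also with 1 replicate left out, they were P2rx6 (-0.128 to 0.408) and P2rx5 (-0.375 to 0.474). The cause of these changes was not tested beyond the filters and sample numbers named. With 5576834 reads in the shallowest library, levels near 1 CPM rest on a handful of reads. No receptor with a mean of at least 1 CPM had a single library standing apart by Dixon's criterion. Where the 4 libraries split into 2 pairs that criterion can hardly be met, so it says little about single libraries. Values of single receptors under all alternatives covered tests, mean levels and pair differences. Of these, 690 were rated the same, 39 lost a call, 13 gained one, 13 turned direction in a test and 1 moved. For a test, the same meant keeping direction and side of the threshold. For a level or pair difference it meant a shift under 1 SD of the libraries. The pair differences of P2rx4 and P2rx6 without the ribosomal RNA entries changed sign within that SD and were rated the same.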
